A study of Mus musculus with 12 samples.

Results

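The livers of 6 male C57BL/6J mice were compared here, 3 from mice kept on chow and 3 from mice given simvastatin in the same chow. They were chosen by their labels alone, as the 6 males among the 12 livers of the series. C57BL/6J is the standard inbred laboratory mouse, and no allele or transgene was added in any group. The labels give a diet time of 4 weeks in every group and 0.1 g of simvastatin per kg. They tie that amount to body weight and name the diet D11060903i, whereas the methods of the study tie it to the weight of the food, so the basis of the dose is uncertain. The other 6 livers came from female mice on the same 2 diets with 3 per group. They entered the model for its estimate of the spread, and they are cited below only to set the male values beside theirs. RNA was measured by poly(A)-selected, strand-specific sequencing of whole liver, and each replicate is a separate mouse.

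Simvastatin blocks the making of mevalonate, the precursor of cholesterol and of coenzyme Q. When sterols run low in a hepatocyte, the transcription factor SREBP-2 is released from the endoplasmic reticulum (ER) and raises the genes of cholesterol synthesis and uptake. The hepatocyte also makes the apolipoproteins, clears fatty acids and sugars, stores metals in metallothioneins, and folds a large load of secreted protein in the ER. The comparison asks which of these functions differed in RNA between the diets in males.

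Between 48781240 and 60048292 reads per male liver were assigned to genes, and 11968 genes passed the deposited filter of more than 1 CPM (counts scaled to library size) in at least 6 of the 12 livers. All 8 hepatocyte markers passed it, and the albumin gene took 5.71% to 9.87% of the reads of each male liver. Male statin replicate 1 stood apart. On the axis that held 72.1% of the variance of the male livers around their group means, over the 7641 genes that averaged 10 CPM or more, its score was 24.7, against -17.8 for statin replicate 3, -6.90 for statin replicate 2 and -8.85 to 9.60 for the chow livers. Across genes, the weights of that axis had a Spearman correlation of 0.517 with transcript length, a description that gives no cause. Replicate 1 also had the lowest share of ribosomal protein reads, 0.829% against 0.945% to 1.59% in the other male livers. How many calls in the gene lists changed without it, with examples, is given after the lists.

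**Figure D1:**
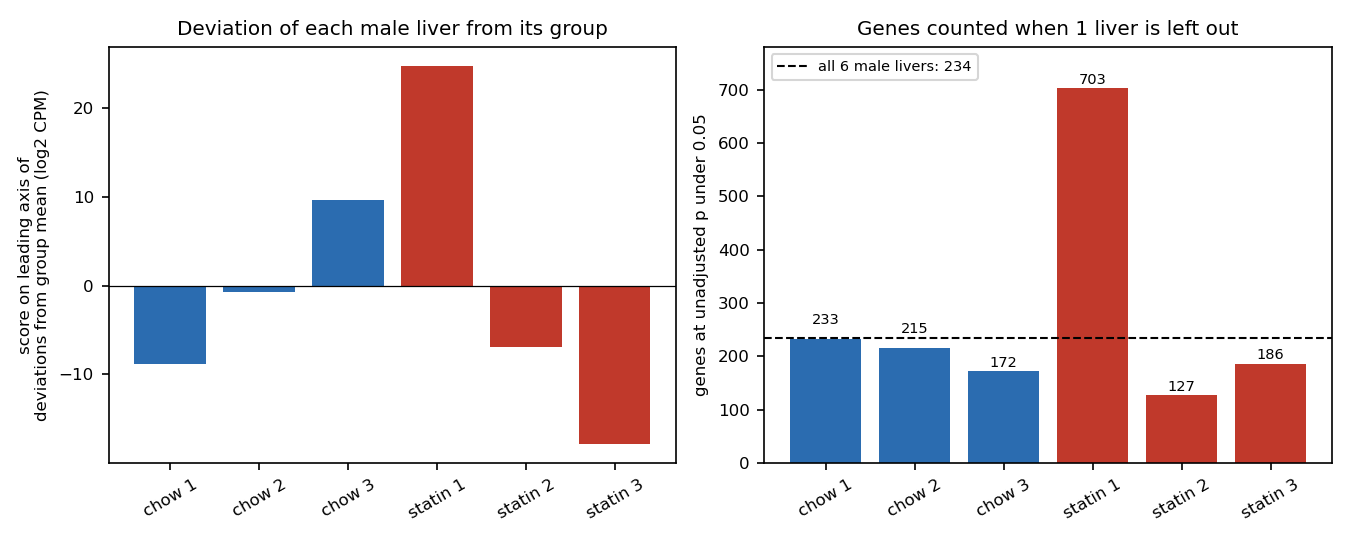
Left, the score of each male liver on the leading axis of deviations from the group means (log2 CPM), for chow livers in blue and statin livers in red. Right, the number of genes at an unadjusted p under 0.05 when that liver was left out, against 234 with all 6 (dashed line). Statin replicate 1 had the highest score, 24.7, and leaving it out gave 703 genes.

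No gene differed between the diets in male livers at an adjusted p under 0.05 by edgeR's quasi-likelihood test with Benjamini-Hochberg adjustment over 11968 genes, which is 0% of those tested. The lowest adjusted p was 0.9998, so no difference given below for a single gene passed the correction. Genes are ranked below by their unadjusted p, from rank 1 for the smallest of the 11968. At an unadjusted p under 0.05 there were 234 genes, 1.96% of those tested, with 101 higher (0.844%) and 133 lower (1.11%) in statin livers. A test in which no gene differs gives about 5% on average. DESeq2 on the same counts called 4 genes at an adjusted p under 0.05: Dnajb9 and Creld2 at 0.00723 each, Pfkfb3 at 0.0336 and Apoa4 at 0.0414. The median size of the log2 fold change over all genes was 0.107, below the median standard error of 0.191. Only 40 genes had a fitted difference of more than 1 log2 unit. The 3 statin livers all lay above the 3 chow livers for 436 genes (3.64%) and all lay below them for 515 (4.3%), together 951 (7.95%). In whole tissue, fewer cells of a type and less RNA per cell cannot be told apart.

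**Figure D2:**
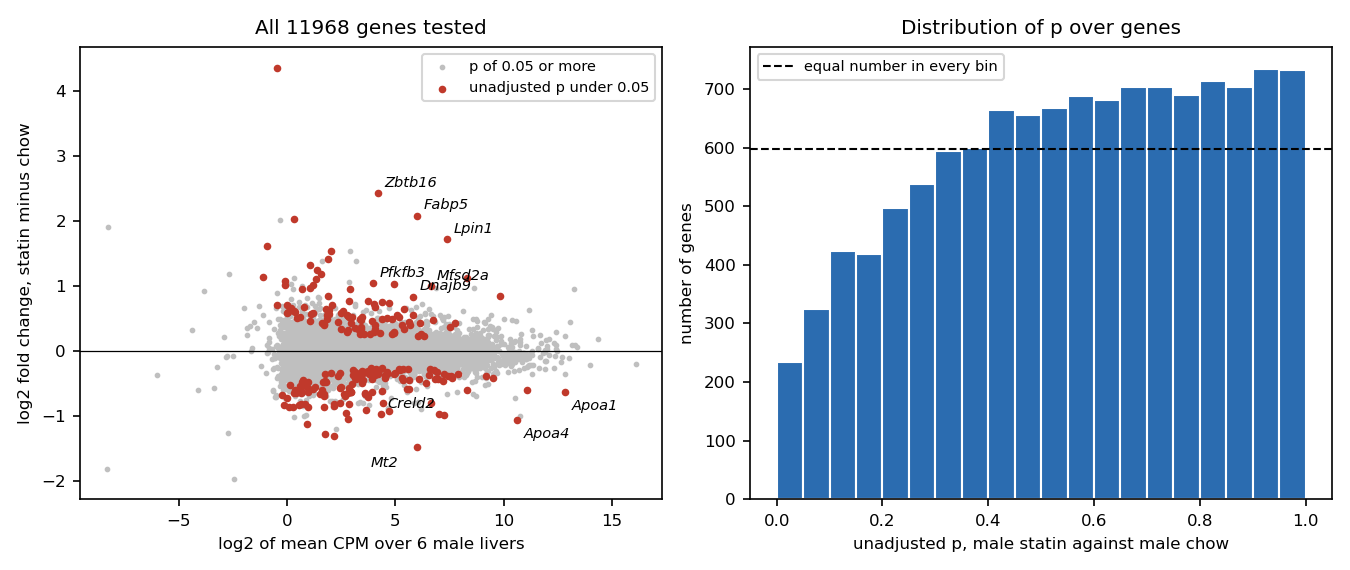
Left, the log2 fold change of statin minus chow in male livers against the log2 of the mean CPM for each of 11968 genes, with red points for the 234 at an unadjusted p under 0.05. Right, the number of genes in each bin of unadjusted p, where the bin under 0.05 holds 234 genes and lies below the dashed line for equal bins.

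The 2 genes with the smallest p both encode proteins of the ER lumen, and they differed in opposite directions. Creld2 (chromosome 15, 88819646 to 88826683, plus strand, GRCm38) encodes a secreted ER factor with disulfide isomerase activity that is induced by ER stress. It measured 25.7, 22.8 and 31.8 CPM in the chow livers and 15.2, 13.04 and 12.98 in the statin livers. All 3 statin livers lay below all 3 chow livers, and the log2 fold change was -0.96 ± 0.18 (SE), rank 1 by p. Dnajb9 (chromosome 12, 44205559 to 44210326, minus strand), a co-chaperone of the ER chaperone BiP, measured 43.8, 39.7 and 38.9 CPM on chow and 59.4, 86.1 and 73.6 on statin. Here the statin livers were all higher, by a log2 fold change of 0.84 ± 0.16 (SE), rank 2 by p. Without statin replicate 1 the values were -1.04 for Creld2 and 0.97 for Dnajb9. Per kb of transcript, over the 6 male livers, Dnajb9 stood at 23.1 CPM and Creld2 at 14.8.

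Other ER chaperones had lower values as well. Sdf2l1, part of an ER chaperone complex with BiP, measured 24.3, 24.1 and 32.4 CPM on chow and 15.6, 15.7 and 15.1 on statin, a log2 fold change of -0.80 ± 0.24 (SE), rank 27 by p. The 3 statin livers were nearly equal and all below the chow livers. Calr, the lectin chaperone calreticulin, measured 797, 782 and 931 CPM on chow and 687, 636 and 569 on statin, a log2 fold change of -0.41 ± 0.16 (SE), rank 105 by p. Pdia4, a protein disulfide isomerase, had a log2 fold change of -0.45 ± 0.18 (SE), rank 130 by p, and its groups did not overlap either. Of the 28 genes on the ER chaperone and unfolded protein response list, all tested, 1 was higher and 4 were lower at an unadjusted p under 0.05, where 0.844% and 1.11% of all genes were. The list's median log2 fold change was -0.13, against 0.0036 over all genes, and 19 of its 28 genes had a negative value. The median ran from -0.27, without statin replicate 1, to -0.038, without statin replicate 3. Liver by liver, the median over the list relative to the chow mean was -0.0592, -0.0644 and 0.139 in the chow livers and 0.0952, -0.18 and -0.354 in the statin livers. The groups overlapped because statin replicate 1 lay among the chow livers. Without that replicate, 1 list gene was higher and 7 were lower at an unadjusted p under 0.05, where 2.52% and 3.36% of all genes were. Among the sensors and transcription factors of the response, Atf6 was at -0.06, Ern1 at -0.064 and Atf4 at 0.041 log2 units, and BiP itself (Hspa5) was at -0.14 ± 0.15 (SE). Without statin replicate 1 Atf6 was at -0.30, Ern1 at -0.32 and Atf4 at 0.12, and the sign of each turned when some other liver was left out.

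The ER stress response element (ERSE) is the promoter motif through which XBP1 and ATF6 act with NF-Y. It was searched on both strands as CCAAT and CCACG with 9 bases of any kind between them, in RefSeq promoter windows of GRCm38.p6, which run from 250 bases before to 50 bases after each gene start. The motif was in 39 of 32851 windows (0.119%). Of the 28 list genes, 25 had a window and 9 of them held a match: Calr, Canx, Creld2, Derl3, Dnajc3, Hsp90b1, Hspa5, Pdia6 and Syvn1. Their male log2 fold changes ran from -0.96 to 0.08 with a median of -0.20, and 8 of the 9 were negative. The windows of Creld2 (chr15:88819396-88819695, plus strand) and Calr (chr8:84846882-84847181, minus strand), the 2 of these genes whose livers did not overlap, are shown with the match in capitals. In both the match reads on the strand opposite to the gene, so the capitals run from CGTGG to ATTGG.
Creld2: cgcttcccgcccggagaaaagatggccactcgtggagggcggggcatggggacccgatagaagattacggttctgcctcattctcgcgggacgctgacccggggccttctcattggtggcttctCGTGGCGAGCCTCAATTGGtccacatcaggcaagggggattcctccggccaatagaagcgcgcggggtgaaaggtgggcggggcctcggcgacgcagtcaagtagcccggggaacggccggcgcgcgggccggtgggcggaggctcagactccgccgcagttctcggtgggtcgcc
Calr: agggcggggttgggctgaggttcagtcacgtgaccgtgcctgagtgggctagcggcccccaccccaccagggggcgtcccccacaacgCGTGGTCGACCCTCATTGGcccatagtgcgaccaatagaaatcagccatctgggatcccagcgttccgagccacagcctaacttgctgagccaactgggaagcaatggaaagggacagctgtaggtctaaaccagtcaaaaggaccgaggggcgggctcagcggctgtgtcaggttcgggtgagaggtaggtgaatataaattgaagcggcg
No match was present in the windows of Dnajb9 or Sdf2l1.

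Metallothioneins bind zinc and copper and are among the most inducible genes of the liver. Mt2 (chromosome 8, 94172664 to 94173568, plus strand) measured 90.5, 111 and 77.8 CPM in the chow livers and 36.9, 39.4 and 24.7 in the statin livers. The highest statin liver held less than the lowest chow liver, and the log2 fold change was -1.47 ± 0.37 (SE), rank 9 by p. Mt1, its neighbour on the same strand (chromosome 8, 94179082 to 94180327, plus strand), measured 168, 196 and 145 CPM on chow and 83.2, 86.3 and 90.2 on statin, a log2 fold change of -0.97 ± 0.34 (SE), rank 62 by p. For Mt1 too the groups did not overlap, and both values held without statin replicate 1, at -0.94 for Mt1 and -1.54 for Mt2. Slc39a5, a zinc importer, measured 1.72, 1.37 and 1.73 CPM on chow and 1.11, 0.716 and 1.25 on statin, rank 135 by p. These 3 were the members of the 10-gene metallothionein and zinc list at an unadjusted p under 0.05, all lower, where 1.11% of all genes were lower. The list's median was -0.13.

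The metal response element (MRE), the site of MTF-1, was searched by its core as TGCGCNC and TGCACNC on both strands in the same promoter windows. It is short and common: 25.7% of all 32851 windows held at least 1 match. Of the 10 list genes, 8 had a window and 5 of them held a match: Mt1, Mt2, Slc30a1, Slc30a10 and Slc39a5. The windows of Mt1 (chr8:94178839-94179138, plus strand), with 3 matches on the gene's strand, and of Mt2 (chr8:94172368-94172667, plus strand), with 2 on each strand, are shown with the matches in capitals because these 2 genes had the lowest values of the list. No matches overlapped in either window.
Mt1: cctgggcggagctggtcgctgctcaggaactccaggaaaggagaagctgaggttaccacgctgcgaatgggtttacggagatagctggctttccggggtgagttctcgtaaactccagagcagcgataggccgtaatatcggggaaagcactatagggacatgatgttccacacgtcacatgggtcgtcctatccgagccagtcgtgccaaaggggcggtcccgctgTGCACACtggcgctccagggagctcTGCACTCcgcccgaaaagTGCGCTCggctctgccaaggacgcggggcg
Mt2: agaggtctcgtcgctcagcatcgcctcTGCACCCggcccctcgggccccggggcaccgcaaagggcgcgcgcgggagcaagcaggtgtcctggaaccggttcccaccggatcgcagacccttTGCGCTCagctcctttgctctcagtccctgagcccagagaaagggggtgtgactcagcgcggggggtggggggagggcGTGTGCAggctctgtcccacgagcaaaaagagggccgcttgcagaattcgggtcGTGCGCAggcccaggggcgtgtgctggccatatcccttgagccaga

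Lower levels were also found for 2 of the apolipoprotein genes in a cluster on chromosome 9. Apoa4 (chromosome 9, 46240696 to 46243459, plus strand), an apolipoprotein of triglyceride-rich particles, measured 1802, 2174 and 2459.8 CPM on chow and 899.8, 1064 and 1139 on statin. Every statin liver was below every chow liver, with a log2 fold change of -1.05 ± 0.24 (SE), rank 4 by p. Apoa1 (chromosome 9, 46228580 to 46230466, plus strand), the main protein of high-density lipoprotein, measured 9229, 7982 and 9427 CPM on chow and 6161, 5110.4 and 6019 on statin, a log2 fold change of -0.62 ± 0.18 (SE), rank 24 by p. Apoc3 and Apoa5 of the same cluster stood at -0.025 ± 0.20 (SE) and -0.072 ± 0.19 (SE) and did not separate the groups. Of the 15 genes for apolipoproteins and lipoprotein assembly, these 2 were lower and none was higher at an unadjusted p under 0.05, where 1.11% and 0.844% of all genes were. The list's median was -0.08, and Apoe, which directs remnant particles to their receptors, was at -0.21 ± 0.18 (SE).

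The genes of the statin's own pathway gave few calls, as did genes at large. None of the 21 genes of mevalonate and cholesterol synthesis was at an unadjusted p under 0.05. With 1.96% of all genes at that level, this does not set the list apart. The first by rank was Pmvk, phosphomevalonate kinase, at 0.63 ± 0.37 (SE), rank 640 by p. Without statin replicate 3 the value of Pmvk was 0.20. The list's median was 0.18, with 16 positive values of 21, but a single liver set it. The median over the list was 0.169, -0.19 and -0.0899 log2 units in the chow livers and -0.123, -0.125 and 0.728 in the statin livers, so that only statin replicate 3 exceeded the chow livers. Without replicate 3 the fitted median of the list was -0.21. Sqle, squalene epoxidase, shows the same spread, with 65.3, 34.2 and 54.5 CPM on chow and 46.1, 45.3 and 120.0 on statin. Of the 16 tested genes of sterol sensing, uptake and efflux none was at an unadjusted p under 0.05, again near the share of all genes, and the median was -0.05. In the 13-gene coenzyme Q list 1 gene was higher at that level, where 0.844% of all genes were: Coq10b, a coenzyme Q-binding protein of mitochondria, with 39.4, 43.3 and 43.1 CPM on chow and 47.95, 58.6 and 66.2 on statin, rank 110 by p.

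Sugar use held 1 of the clearest single differences. Pfkfb3 makes fructose 2,6-bisphosphate, the activator of glycolysis. Pfkfb3 measured 7.9, 11.5 and 11.1 CPM on chow and 24.2, 20.02 and 18.7 on statin, with a log2 fold change of 1.05 ± 0.22 (SE), rank 3 by p. All statin livers were above all chow livers, the first replicate included. The median over the 17-gene glycolysis and fructose list was 0.10. None of the 13 gluconeogenesis and insulin signaling genes was at an unadjusted p under 0.05, where 1.96% of all genes were. Pck1, the gatekeeper of gluconeogenesis, measured 1372, 1275 and 2878 CPM on chow and 3459, 2836 and 2244 on statin, and chow replicate 3 lay within the statin range.

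In lipid handling, Mfsd2a, the sodium-dependent carrier of lysophosphatidylcholine, measured 56.95, 70.3 and 71.01 CPM on chow and 133, 118 and 144 on statin. The log2 fold change was 1.00 ± 0.25 (SE), rank 5 by p, and without statin replicate 1 it was 0.99. Lpin1, a phosphatidate phosphatase of triglyceride synthesis, measured 59.2, 49.8 and 125 CPM on chow and 156, 328 and 288 on statin, a log2 fold change of 1.72 ± 0.52 (SE), rank 33 by p. Both separated the groups, but the Lpin1 livers spread more widely within each diet. They were the 2 genes of the 20 tested for triglyceride and phospholipid metabolism at an unadjusted p under 0.05, both higher, where 0.844% of all genes were higher. The list's median was -0.06. Of the 16 fatty acid synthesis genes only Me1, malic enzyme, which supplies NADPH, was at an unadjusted p under 0.05. Me1 had 228, 207 and 170.5 CPM on chow and 286, 475 and 560.3 on statin, rank 223 by p. The list's median was 0.41, with 11 positive values of 16, and its median per liver was 0.109, -0.214 and -0.0011 on chow and 0.22, 0.164 and 0.62 on statin. Elovl6, a fatty acid elongase, measured 89.7, 68.6 and 82.8 CPM on chow and 101, 144 and 229 on statin, whereas Srebf1, the gene of the factor that drives the list, stood at -0.29 ± 0.37 (SE). Without statin replicate 1 the value of Srebf1 was -0.71, and without statin replicate 2 it was -0.065. Scd1 measured 9205, 4132 and 6478 CPM on chow and 6688, 12410 and 19556 on statin, with overlapping groups.

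Fatty acid oxidation genes and other targets of PPAR-alpha, the fatty acid sensor, mostly had negative values. Of 27 tested, 23 had negative values (49.0% of all genes did) and the median was -0.20, but 1 was lower at an unadjusted p under 0.05, where 1.11% of all genes were. That gene was Fgf21, a fasting hormone of the liver, with 2.26, 1.93 and 1.46 CPM on chow, 1.19, 1.04 and 0.934 on statin, rank 124 by p. By the list's median, statin replicate 1 lay within the range of the chow livers, with -0.0379, 0.0354 and 0.00192 on chow and -0.0303, -0.274 and -0.281 on statin. Hadha, of the mitochondrial trifunctional protein, measured 326, 344 and 382 CPM on chow and 353, 257 and 228 on statin. Without that replicate 5 genes of the list were lower at an unadjusted p under 0.05, where 3.36% of all genes were, with Fgf21, Hadha, Acaa1b and Acot1 among them. No gene for bile acid synthesis and transport, of 15, was at an unadjusted p under 0.05 with all livers, where 1.96% of all genes were. Cyp7a1, the rate-limiting enzyme of bile acid synthesis, measured 176, 191 and 257 CPM on chow and 99.6, 131 and 164 on statin, with no overlap but only rank 1203 by p.

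Drug metabolism gave 1 gene in each direction among 24 at an unadjusted p under 0.05, where 0.844% of all genes were higher and 1.11% lower. Cyp3a11, the main CYP3A enzyme of mouse liver, measured 2432, 2529.9 and 2844 CPM on chow and 1779.9, 1782 and 1574 on statin, a log2 fold change of -0.60 ± 0.21 (SE), rank 69 by p. Its relative Cyp3a59 was lower as well, with 34.5, 32.1 and 36.6 CPM on chow and 20.8, 18.9 and 15.03 on statin. The statin livers were below the chow livers for both, and because these genes are near copies of each other their counts may share reads. Gstm3, a glutathione transferase, was higher, with 25.2, 17.5 and 16.5 CPM on chow and 30.8, 43.01 and 47.7 on statin, rank 106 by p. The median of the list was -0.03.

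The ranking named 15 genes in each direction, those with the smallest p among genes whose groups did not overlap. The 15 higher genes had log2 fold changes from 0.49 to 1.62 and the 15 lower genes from -1.47 to -0.48. Among the higher, Mgat2, a Golgi enzyme of complex N-glycans, measured 48.7, 43.6 and 42.4 CPM on chow and 56.2, 73.1 and 69.2 on statin (rank 7 by p). Alg2, a mannosyltransferase of N-glycan precursors in the ER, measured 13.2, 12.4 and 13.1 CPM on chow and 20.6, 22.3 and 19.2 on statin (rank 12 by p). Creb3l2, a transcription factor anchored in the ER membrane, measured 16.5, 18.9 and 22.98 CPM on chow and 33.2, 35.2 and 29.3 on statin (rank 25 by p). For these 3 genes the lowest statin liver was above the highest chow liver. Col15a1, a basement membrane collagen, had a log2 fold change of 0.77 ± 0.20 (SE), Amd1, the decarboxylase that starts polyamine synthesis from S-adenosylmethionine, 0.49 ± 0.14 (SE), and Cks1b, a subunit of cyclin-dependent kinases, 0.86 ± 0.22 (SE). The other higher genes were Mup-ps20, Gpm6b, Nfxl1, Unc79, AA986860 and Olfm3. Mup-ps20 is a pseudogene among near-identical major urinary protein copies, so its counts are uncertain. Gpm6b averaged 0.937 CPM and Unc79 0.526 CPM over the male livers.

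Among the lower genes, Tnfaip2, a gene induced by tumour necrosis factor, measured 25.4, 25.8 and 24.1 CPM on chow and 20.3, 15.6 and 13.3 on statin (rank 6 by p). Hfe2, hemojuvelin, the co-receptor that sets hepcidin, measured 107, 92.7 and 99.8 CPM on chow and 74.5, 66.7 and 73.3 on statin (rank 13 by p). Rnf186, a ubiquitin ligase, measured 10.96, 10.1 and 7.21 CPM on chow and 6.09, 3.89 and 3.7 on statin (rank 23 by p). The spread within a diet was narrow for Hfe2 and wide for Rnf186, where chow replicate 3 came close to statin replicate 1. Cda, cytidine deaminase, had a log2 fold change of -0.55 ± 0.15 (SE), Serpinb8, an intracellular protease inhibitor, -0.79 ± 0.22 (SE), Napepld, which makes N-acylethanolamines, -0.84 ± 0.23 (SE), and St5 -0.71 ± 0.21 (SE). D630039A03Rik at -0.64 ± 0.18 (SE) and Gm13340 at -0.63 ± 0.18 (SE) completed the 15. All 30 ranked genes stayed at an unadjusted p under 0.05 without statin replicate 1. Since the ranking used these values, that is a description of the genes chosen.

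**Figure D3:**
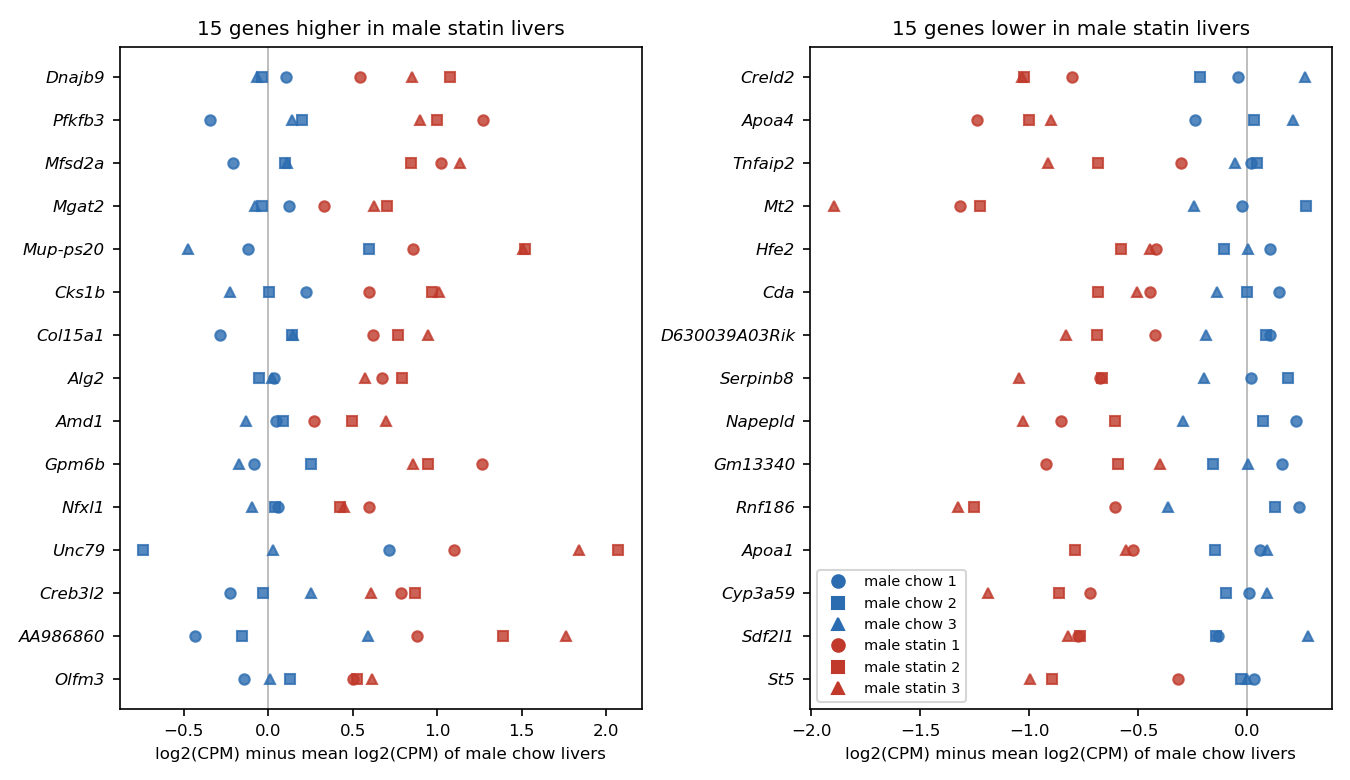
Log2 CPM of each male liver minus the mean log2 CPM of the chow livers, for the 15 genes higher (left) and the 15 lower (right) in statin livers, with blue for chow, red for statin and a marker shape for each replicate number. The groups do not overlap for any gene, as the ranking required, and statin replicate 1 (red circles) is the statin liver nearest to chow for Tnfaip2, St5, Mgat2 and Dnajb9, among others.

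Among genes that averaged 5 CPM or more in the male livers, the 5 largest positive fold changes included Lpin1, described above, whose groups did not overlap, and 4 genes that were high in only some statin livers. Zbtb16, a transcription factor induced by glucocorticoids, was highest. Zbtb16 measured 3.94, 2.04 and 11.2 CPM on chow and 2.89, 47.2 and 42.5 on statin, a log2 fold change of 2.43 ± 0.88 (SE), rank 83 by p. Fabp5, a fatty acid binding protein, measured 38.1, 15.6 and 20.3 CPM on chow and 13.8, 84.3 and 216 on statin, a log2 fold change of 2.09 ± 0.89 (SE), rank 177 by p. For both, statin replicate 1 fell within or below the chow range while replicates 2 and 3 were above it. Without replicate 1 the values were 2.97 for Zbtb16 and 2.61 for Fabp5, and without statin replicate 3 that of Fabp5 was 0.99. Pdzk1ip1 (5.49, 2.37 and 3.62 CPM on chow, 3.26, 8.4 and 21.6 on statin) and Chrna4, a nicotinic receptor subunit (8.51, 2.5 and 4.09 CPM on chow, 4.02, 9.62 and 25.9 on statin), had the same order of statin livers as Fabp5. Mt2, Apoa4, Rnf186 and Car3 were among the 5 largest negative values, and none of these 4 had overlapping groups. Car3, carbonic anhydrase 3, measured 1776, 2471 and 2629 CPM on chow and 1676, 924 and 857 on statin, rank 278 by p. More widely, statin replicate 1 was the statin liver closest to the chow mean for 133 of the 234 genes at an unadjusted p under 0.05 (56.8%) and for 33.6% of all genes.

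The remaining lists held few genes at an unadjusted p under 0.05, where 0.844% of all genes were higher and 1.11% lower. The 17-gene heme and iron list had 2 lower, Hfe2 and the iron exporter Slc40a1, which measured 286, 288 and 221 CPM on chow and 209, 225 and 190.1 on statin. Acute phase and inflammation had 2 lower of 22, Tnfaip2 and Lcn2, lipocalin 2, with 11.5, 19.5 and 18.3 CPM on chow and 6.34, 12.7 and 7.22 on statin, and a list median of -0.15. Among 12 immediate early and stress genes 2 were lower, Klf6 (12.5, 14.1 and 12.9 CPM on chow, 10.01, 9.42 and 9.64 on statin) and Gadd45a at -0.81 ± 0.36 (SE). In the 11-gene glucocorticoid target list Zbtb16 was higher and Mt1, Mt2 and Lcn2 were lower, so its members did not share a direction. Of 19 clock genes 1 was higher, the repressor Ciart, with 10.2, 10.8 and 15.6 CPM on chow and 14.6, 25.2 and 20.5 on statin. The clock list's median was -0.06. Heat shock proteins had 1 lower of 11, the small chaperone Hspb1, at -0.63 ± 0.27 (SE). Glycogen had 1 lower of 12, Pgm3 at -0.36 ± 0.16 (SE), an enzyme known for making UDP-N-acetylglucosamine rather than glycogen.

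Neither the urea cycle and amino acid list (16 genes), the Nrf2 list (14) nor the male-biased liver genes (13) had a gene at an unadjusted p under 0.05. Of all genes 1.96% were at that level. The urea cycle and amino acid genes had positive values in 14 of 16 and a median of 0.16. Their medians per liver were 0.0288, -0.0894 and 0.021 on chow and 0.153, 0.242 and 0.0627 on statin, without overlap. The periportal markers, given below, did not overlap either, but the lists share Gls2, Hal, Ass1, Cps1 and Arg1. Ass1, argininosuccinate synthase, measured 2489, 1894 and 2265 CPM on chow and 2582, 3006 and 2784 on statin. The male-biased list had a median of 0.04, and per liver 0.296, -0.016 and -0.261 on statin, so replicates 1 and 3 lay on either side of the chow livers. In the growth hormone list (10 genes) and the female-biased list (13 genes) the only gene at an unadjusted p under 0.05 was Cux2, a female-biased transcription factor, with 0.429, 0.621 and 0.413 CPM on chow and 0.656, 0.89 and 4.52 on statin. Statin replicate 3 alone stood far above the other livers.

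Respiratory chain genes varied between livers of the same diet. None of the 36 nuclear complex I subunits and none of the 10 mitochondrially encoded genes was at an unadjusted p under 0.05, where 1.96% of all genes were. The complex I list had 29 positive values and a median of 0.08. Per liver its medians were 0.12, -0.0183 and -0.107 on chow and -0.276, 0.117 and 0.325 on statin, so the 3 statin livers spanned a wider range than the chow livers and enclosed them. Ndufc2, one such subunit, measured 58.7, 53.9 and 49.4 CPM on chow and 43.1, 67.4 and 76.8 on statin. The share of reads from mitochondrially encoded genes was 4.39% to 5.16% on chow and 4.59% to 6.12% on statin.

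**Figure D4:**
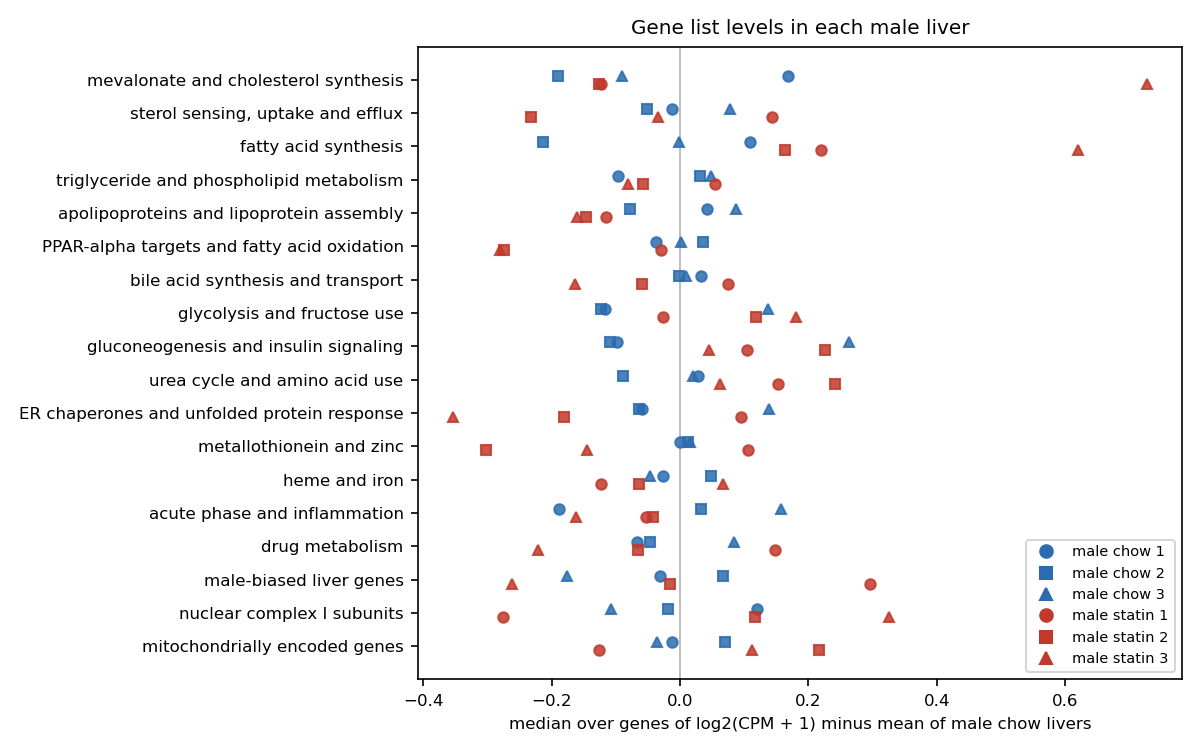
The median over each gene list of log2(CPM + 1) minus the mean of the male chow livers, for each male liver, with blue for chow, red for statin and a marker shape for each replicate number. Fatty acid synthesis and urea cycle and amino acid use are higher, and apolipoproteins lower, in all 3 statin livers, whereas the mevalonate list is high in statin replicate 3 alone. The apolipoprotein groups lie close, at -0.078 for the lowest chow liver and -0.115 for the highest statin liver. All other lists overlapped between the diets except the periportal markers, which are not drawn. No test was run on these medians.

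Few markers of other liver cells were at an unadjusted p under 0.05, where 1.96% of all genes were. None of 11 Kupffer cell and macrophage markers, 9 endothelial markers and 9 stellate cell and fibroblast markers was at that level. So small a share does not set these lists apart from all genes. Of the macrophage markers 10 of 11 had a negative value, with a median of -0.12, where 5864 of all 11968 genes were negative. The summed macrophage markers ran from 387 to 611 CPM on chow and from 396 to 489 on statin. Endothelial markers summed to 299 to 412 CPM on chow and 300.2 to 446 on statin, and stellate markers to 364 to 400.3 and 343 to 460. The 3 sums therefore overlapped between the diets. Neutrophil markers had 1 tested gene of 6, Csf3r, lower at -0.50 ± 0.21 (SE), and Ly6g was at 0. Erythroid markers had 1 lower of 5, where 1.11% of all genes were: Hba-a2, at -0.64 ± 0.26 (SE), a near copy of Hba-a1. The erythroid markers summed to 226 to 240 CPM on chow and 182 to 248 on statin, and their median per liver was -0.1, -0.149 and 0.205 on chow and -0.918, -0.173 and 0.0249 on statin, lowest in statin replicate 1. Only 2 of 6 cholangiocyte and 2 of 10 lymphocyte markers passed the filter, with none at an unadjusted p under 0.05. All 8 cell division markers and all 11 adipose, muscle and pancreas markers fell under the filter, and among the latter Prss2, Cpa1 and Cela3b were at 0. None of the 9 periportal and 9 pericentral markers was at an unadjusted p under 0.05, with medians of 0.17 and 0.05. Liver by liver, however, the median over the periportal markers was -0.0319, -0.175 and 0.166 on chow and 0.229, 0.326 and 0.244 on statin, without overlap. The urea cycle and amino acid list did not overlap either. It shares Gls2, Hal, Ass1, Cps1 and Arg1 with these markers, so the results are not separate. Among the hepatocyte markers Apoa1 alone was at an unadjusted p under 0.05, and the list's median was 0.01. The part of cell mixture in the results above was not tested.

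Leaving out statin replicate 1 changed which list genes were at an unadjusted p under 0.05, a level at which 2.52% of all genes were then higher and 3.36% lower. Of the 488 genes on the lists, 32 were at that level with all livers. Without replicate 1, 5 of the 32 no longer were: Lcn2 (-0.72), Slc40a1 (-0.35), Pgm3 (-0.39), Csf3r (-0.47) and Hba-a2 (-0.45). Another 36 genes reached it, and those described next are examples. The metallothionein and zinc list went from 3 to 5 lower genes. Of the 14 Nrf2 genes 2 were then lower, Gclc, a subunit of the first enzyme of glutathione synthesis, at -0.59, and Sqstm1, the autophagy receptor p62, at -0.37. Gclc measured 208, 271 and 231 CPM on chow and 316, 179.7 and 135 on statin, so replicate 1 lay above every chow liver and the other statin livers below them. In the urea cycle and amino acid list Got1, an aspartate aminotransferase, was higher, with 276, 200.2 and 184 CPM on chow and 254, 421 and 346 on statin. Of the 13 male-biased genes 3 were then lower and 1 was higher. Cyp4a12a, a male-biased fatty acid hydroxylase among the lower, measured 140.1, 207 and 182 CPM on chow and 212, 127 and 126 on statin. In the mevalonate list Pmvk was higher, at 0.89, and the median of the list was 0.36. No macrophage, endothelial or stellate marker was at that level without replicate 1 either.

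The ranked male genes were then set beside the female livers, which share no animal with them. Of the 15 genes higher in male statin livers, 10 had a negative value in females, with a median of -0.24. Of the 15 lower genes, 11 had a positive value, with a median of 0.21. The share of all tested genes with opposite signs between the sexes was not counted. Pfkfb3 was at -0.78 ± 0.22 (SE) in females and Apoa4 at 0.74 ± 0.24 (SE). Creld2, Sdf2l1 and Mt2 had negative values in both sexes, at -0.30, -0.38 and -0.14 in females, and Alg2 and Dnajb9 positive ones, at 0.35 and 0.23. The test of the difference itself, the interaction of sex and diet, gave 0 genes of 11968 at an adjusted p under 0.05 by edgeR (0%) and 959 at an unadjusted p under 0.05 (8.01%). DESeq2 called 122 genes in the same comparison. For Pfkfb3 the adjusted interaction p by edgeR was 0.137, for Apoa4 0.172 and for D630039A03Rik 0.168. Lpin1, at 1.72 in males and -1.62 in females, had 0.259. By list, fatty acid synthesis had a median of 0.41 in males and -1.17 in females, with 11 of its 16 genes at an unadjusted interaction p under 0.05. The PPAR-alpha list had -0.20 and 0.79, with 20 of 27. The ER list had -0.13 and -0.17, with 2 of 28.

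**Figure D5:**
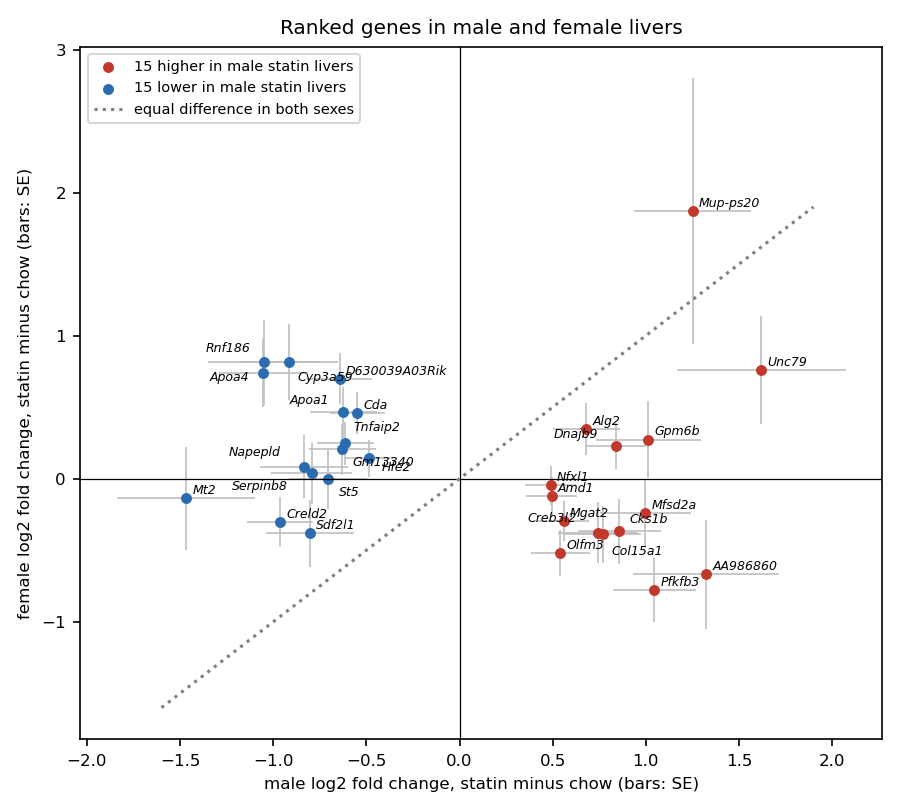
The log2 fold change of statin minus chow in male livers (horizontal) and female livers (vertical) for the 15 genes ranked highest in each direction in males, with bars for standard errors and a dotted line where both sexes are equal. In females 10 of the 15 red genes lie below 0 and 11 of the 15 blue genes above it, without a count of opposite signs over all genes.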

How the data were processed

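Whole livers of 12 mice were sequenced, and the 3 male statin and 3 male chow livers were compared. The submitters' processing notes name STAR 2.4.1a, HTSeq, edgeR 3.28.1 and GRCm38, per the labels. The counts deposited by the authors are whole reads per gene with more than 1 CPM in at least 6 livers, a filter tested on the files, although their name calls them TMM-normalised. The deposited CPM table of 48526 genes gave whole reads for 100% of values (tolerance 0.01 read) and no value differing from the counts. Depth was 48781240 to 60048292 reads per male liver, so 3 reads, the floor for a count of 0, are 0.05 to 0.061 CPM. Such limits cover counting error only. Symbols for 99.88% of genes, positions and lengths came from GENCODE vM21, and promoter windows from RefSeq.

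Differences were fitted with edgeR 4.0.16 (quasi-likelihood, TMM, 4 groups, 12 livers) with Benjamini-Hochberg adjustment over 11968 genes, after a check on simulated counts. CPM are TMM-scaled. limma 3.58.1 (log2 of CPM plus 1 or 0.1) and DESeq2 1.42.0 served as alternatives, besides other scalings, filters, a length offset, 6 male livers alone, a replicate block and each male liver left out. Genes named were 15 per direction with the smallest p and no overlap, up to 4 per list, and the 5 largest fold changes per direction at 5 CPM or more. Acot1, Slc30a1, Slc30a10, Apoc3, Apoa5, Scd1, Sqle, Srebf1, Hspa5, Pdia4, Atf6, Ern1, Atf4 and other members named for a promoter motif or a call without statin replicate 1 were named after their values were seen. A few genes under these rules are not reported here. The comparison and lists were chosen with earlier results of these data known. R 4.3.3 and Python 3.11.15 were used.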

Additional observations from a re-analysis of the deposited data

Results flagged for a closer look

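The comparisons above used the 11968 genes of the deposited count table. The deposited CPM table gave reads for 14336 further genes. With more than 3 reads in every male statin liver, 237 of them had all 3 statin livers above all 3 chow livers. With more than 3 reads in every male chow liver, 176 had all 3 statin livers below. Each requirement was set on the group that had to be high, which favours the pattern counted, so these counts are a description and are not compared with those of the tested genes. None of the 14336 was at an adjusted p under 0.05 by edgeR's quasi-likelihood test without the filter. They stand here because the report's comparisons left them out, and the 3 of the 237 with the smallest p were the following. Ugt2b38, a UDP-glucuronosyltransferase of a family of near copies, had 78, 122 and 39 reads on chow and 347, 197 and 209 on statin, a log2 fold change of 1.86 with an adjusted p of 0.0859 by edgeR. Its reads may be shared with other family members. Bhlha15, a transcription factor of secretory cells, had 1, 6 and 3 reads on chow and 20, 26 and 19 on statin, a log2 fold change of 2.83 (adjusted p = 0.333 by edgeR). Bex4 had 2, 3 and 4 reads on chow and 14, 8 and 17 on statin, a log2 fold change of 2.22 (adjusted p = 0.742 by edgeR).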

How the results depend on the processing

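No gene passed an adjusted p under 0.05 in any edgeR or limma setting, with 0 when any 1 male liver was left out, whereas DESeq2 called 4. Of 72 single genes compared across 16 or 17 alternatives each, all kept their sign except, when 1 liver was left out, Atf6 (-0.30 to 0.091), Ern1 (-0.32 to 0.088), Atf4 (-0.066 to 0.12), Apoc3 (-0.18 to 0.15), Apoa5 (-0.24 to 0.066) and Sqle (-0.17 to 0.69). The number of genes at an unadjusted p under 0.05, 234 in the report, was 630 without the filter (365 higher and 265 lower, of 26304 genes) and 360 with the 6 male livers alone (184 higher). DESeq2 gave 159 higher genes and the transcript length offset 161. Leaving out 1 male liver gave 127 to 703 genes, with 55 to 301 higher and 72 to 402 lower. The 703 came without statin replicate 1, and 177 of the 234 were among them. The 127 came without statin replicate 2 and share 107, and without chow replicate 3 there were 74 lower genes. The interaction of sex and diet gave 122 genes at an adjusted p under 0.05 by DESeq2 and 103 by edgeR without the filter, against 0 in the report, and 1461 at an unadjusted p without the filter. Why the tools differ was not tested.

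Median log2 fold changes of gene lists moved by more than the spread between livers in few settings other than leaving out a liver: female-biased genes with limma at CPM + 1 (0.045) and with the replicate block (0.095), lymphocyte markers under the stricter filter (0.46) and neutrophil markers with limma at CPM + 1 (-0.30). Leaving out 1 male liver gave medians over these ranges: mevalonate and cholesterol synthesis -0.21 to 0.40, fatty acid synthesis 0.17 to 0.47, ER chaperones and unfolded protein response -0.27 to -0.038, PPAR-alpha targets and fatty acid oxidation -0.33 to -0.14, heat shock proteins 0.0060 to 0.14, metallothionein and zinc -0.38 to -0.014, gluconeogenesis and insulin signaling 0.024 to 0.35, bile acid synthesis and transport -0.11 to 0.14, drug metabolism -0.17 to 0.066, Nrf2 targets and NADPH enzymes -0.060 to 0.099, acute phase and inflammation -0.30 to -0.077, growth hormone and STAT5 axis -0.20 to 0.0052, male-biased liver genes -0.19 to 0.22, female-biased liver genes 0.072 to 0.23, immediate early and stress genes -0.35 to 0.037, urea cycle and amino acid use 0.084 to 0.26, heme and iron -0.15 to -0.033, stellate cell and fibroblast markers -0.30 to 0.043, lymphocyte markers -0.37 to -0.021, neutrophil markers -0.65 to -0.26, periportal markers 0.067 to 0.35.

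Replicate numbers name different mice, and same-numbered male livers did not deviate together. Correlations of their deviations from the group means averaged -0.344 over 3 pairs, from -0.564 to 0.0737. Pairs of different numbers averaged 0.176. Deviations cancel within each group, so that value largely follows from the other and is not a separate comparison. With the replicate block 205 genes were at an unadjusted p under 0.05. Precision is limited by 3 livers per group: the median standard error of 0.191 exceeded the median difference.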

Other observations

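Among the 176 genes under the filter with more than 3 reads in every chow liver and all statin livers below, the lowest p was that of Pou2af1, a coactivator of B and plasma cells, with 19, 36 and 30 reads on chow and 9, 3 and 8 on statin and a log2 fold change of -1.90 (adjusted p = 0.784 by edgeR without the filter). It was named after its values were seen. The 8 cell division markers summed to 2.74 to 3.81 CPM on chow and 3.59 to 5.30 on statin, scaled here to library size alone.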
